A study of Mus musculus with 6 samples.

Results

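The Sonic hedgehog (*Shh*) pathway was followed in the inner enamel epithelium (IEE) of the mandibular first molar of mice with and without epithelial *Kdf1*. The 9 members were taken by exact gene symbol, which gave 9 of the 18152 genes in the deposited table, and all 9 passed the filter on low counts that left 14131 genes to test. They are the ligand *Shh*, the receptors and coreceptors *Ptch1*, *Smo*, *Boc* and *Gas1*, the ligand-binding inhibitor *Hhip*, and the transcription factors *Gli1*, *Gli2* and *Gli3*. RNA sequencing libraries were made at E18.5 (E, embryonic day), 3 of them from *Kdf1* fl/fl mice and 3 from mice that were *K14-Cre;Kdf1* fl/fl, on a C57BL/6J background. Both genotypes carried floxed *Kdf1* alleles, and Cre recombinase driven by the keratin 14 promoter was present only in the second, so that *Kdf1* was removed from epithelial cells from the time that promoter is active. The first group is called control here and the second cKO, as in the sample titles, and a further label calls the first WT. The tissue was cut out of frozen head sections by laser capture microdissection, and whether a library held 1 embryo or several is not given in the sources used here.

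Hedgehog signalling works through the release of an inhibition. Without ligand, the receptor PTCH1 keeps the membrane protein SMO inactive, and GLI proteins act mainly as repressors. When SHH binds PTCH1, helped by the coreceptors BOC, GAS1 and CDON, SMO moves into the primary cilium and the GLI proteins become activators. *Gli1*, *Ptch1* and *Hhip* are themselves switched on by the pathway, and PTCH1 and HHIP hold back the ligand that induced them. In the tooth, *Shh* is made by the epithelium, the enamel knots and the IEE among its sites, and it acts on epithelium and neighbouring mesenchyme.

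The totals of the rounded estimated counts ranged from 14713918 to 16675133 per library. A gene at 0 could still have had up to 3 counts, or 0.182 to 0.198 CPM (counts per 1000000 of the scaled library size), and this floor covers counting error only. *Kdf1* had 836, 731 and 835 counts in the control libraries and 0, 1 and 0 counts in the cKO libraries. The epithelial markers *Krt14*, *Epcam*, *Cdh1* and *Ambn* were present in every library, and so were the mesenchymal markers *Vim*, *Msx1*, *Twist1*, *Pdgfra* and *Col1a1*. The summed level of 9 epithelial markers was 10532 to 25829 CPM in control and 4238 to 7074 CPM in cKO libraries. Without the 3 enamel matrix genes *Ambn*, *Amelx* and *Enam* it was 6887 to 11160 CPM against 4134 to 6555 CPM. *Krt5* was the largest part of this second sum, at 3539 to 5790 CPM in control and 2209 to 3402 CPM in cKO libraries. No marker of the list was at 0 throughout. Nothing in the labels says whether same-numbered libraries share a litter, and p values measure the spread between these libraries. In bulk tissue, fewer cells of a type and less RNA per cell cannot be told apart.

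The largest difference among the members was that of *Hhip*, which was higher in every cKO library, with a 10.2-fold ratio of the group means. *Gas1* and *Boc* were also higher in every cKO library, at 2.34 and 1.72 times the control mean. The levels of *Shh*, *Ptch1*, *Smo*, *Gli1*, *Gli2* and *Gli3* overlapped between the genotypes. A gene was called when its absolute log2 fold change was at least 1 and its adjusted p at most 0.05. None of the 9 members was called by edgeR's quasi-likelihood test, in which 0.432% of all genes tested were called. At an unadjusted p of at most 0.05 the same test gave 3 of 9 members (*Hhip*, *Gas1* and *Boc*), against 24.5% of all genes. With the replicate number as a block, edgeR called *Hhip* alone (1 of 9, against 6.09% of all genes), and DESeq2 called *Hhip* and *Gas1* (2 of 9, against 6.94%). The groups did not overlap, with the cKO libraries higher, in 3 of 9 members and in 14.5% of all genes tested. The median log2 fold change was 0.53 over the members and −0.00426 over all genes tested.

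**Figure D1:**
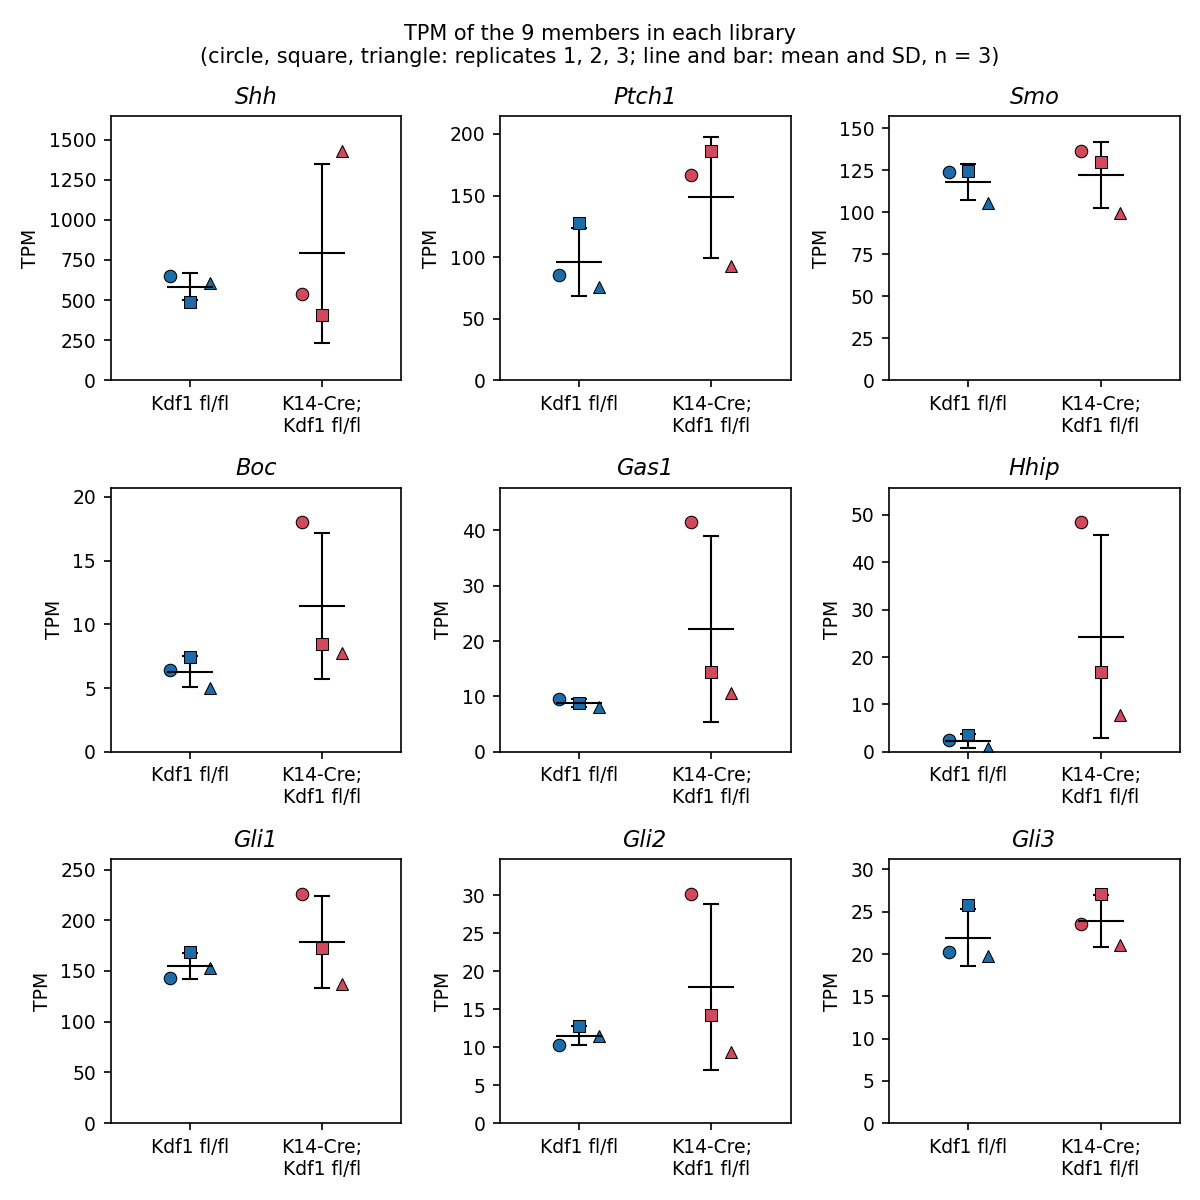
Level of each member in TPM (transcripts per 1000000) on a linear axis from 0, by genotype. Circles, squares and triangles are replicates 1, 2 and 3, and the line and bar are the mean and SD of 3 libraries. *Hhip*, *Gas1* and *Boc* do not overlap between genotypes, and *Shh* has 1 library far above the other 5.

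*Shh*, which encodes the secreted ligand, was the most abundant member in every library. Its level was 652, 490 and 608 TPM in control and 538, 406 and 1430 TPM in cKO libraries 1, 2 and 3. By CPM the group means were 822 ± 153 and 992 ± 662 (SD, n = 3 per group). Replicate 3 of the cKO group was thus the highest of all 6 libraries, and replicate 2 of that group was the lowest. The log2 fold change was 0.27 (SE 0.43, 95% interval −0.75 to 1.29), with an adjusted p of 0.734 in edgeR. Without replicate 3 of the cKO group it was −0.40 (edgeR adjusted p = 0.226), so the direction rested on that library. The interval spans changes in both directions, and no difference in *Shh* was detectable with these libraries.

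The 9 members spanned a wide range of abundance, compared here in TPM because it is scaled by transcript length. In control libraries the mean levels were 583 ± 84.0 TPM for *Shh*, 155 ± 12.8 for *Gli1*, 118 ± 10.8 for *Smo*, 96.2 ± 27.8 for *Ptch1*, 21.9 ± 3.36 for *Gli3*, 11.5 ± 1.24 for *Gli2*, 8.83 ± 0.780 for *Gas1*, 6.30 ± 1.23 for *Boc* and 2.28 ± 1.48 for *Hhip* (SD, n = 3). In this order only the neighbours *Smo* and *Ptch1* overlapped between libraries. In cKO libraries the order was 791 ± 557 TPM for *Shh*, 179 ± 45.0 for *Gli1*, 149 ± 49.2 for *Ptch1*, 122 ± 19.6 for *Smo*, 24.3 ± 21.4 for *Hhip*, 23.9 ± 3.08 for *Gli3*, 22.2 ± 16.8 for *Gas1*, 17.9 ± 10.9 for *Gli2* and 11.4 ± 5.72 for *Boc* (SD, n = 3). There *Shh* stayed above every other member in each library. *Gli1*, *Ptch1* and *Smo* overlapped as neighbours in that order, and so did each pair of neighbours from *Hhip* down to *Boc*.

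*Hhip* encodes a membrane-anchored protein that binds hedgehog ligands and lowers the amount that reaches PTCH1. It had 186, 239 and 60 counts in the control libraries and 3086, 1176 and 539 counts in the cKO libraries. In CPM these were 11.7, 14.5 and 3.79 against 195, 74.0 and 35.5. The lowest cKO library was above the highest control library, and replicate 1 was the highest of all. The means were 9.98 ± 5.54 and 102 ± 83.4 CPM (SD, n = 3 each). This gave a log2 fold change of 3.35 (SE 0.73, 95% interval 1.62 to 5.07). The Benjamini-Hochberg adjusted p of *Hhip* was 0.0717 in edgeR, 0.00957 once the replicate block was added and 0.00139 in DESeq2. Over the other scalings, filters and tests, the adjusted p of *Hhip* reached at most 0.112. Within same-numbered pairs the log2 differences were 4.06, 2.35 and 3.23. Without replicate 1 of the cKO group the log2 fold change was 2.47 (edgeR adjusted p = 0.121), and without replicate 3 of that group it was 3.77 (edgeR adjusted p = 0.0478, past the threshold). Over the 6 libraries left out in turn, the adjusted p of *Hhip* lay between 0.0478 and 0.276.

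The 300-base promoter windows of *Hhip* and *Ptch1*, which are both negative regulators and targets of the pathway, are shown because *Hhip* had the largest difference and *Ptch1* encodes the receptor that competes with it for the ligand. They run from 250 bases before to 50 bases after a transcription start listed by RefSeq on GRCm38.p6, both on the minus strand, at chr8:80057959-80058258 and chr13:63565686-63565985. Capitals mark matches to CCACCC, the core of the GLI binding consensus, and to GGGCGG, the GC box, on either strand (GGGTGG and CCGCCC in reverse).
Hhip: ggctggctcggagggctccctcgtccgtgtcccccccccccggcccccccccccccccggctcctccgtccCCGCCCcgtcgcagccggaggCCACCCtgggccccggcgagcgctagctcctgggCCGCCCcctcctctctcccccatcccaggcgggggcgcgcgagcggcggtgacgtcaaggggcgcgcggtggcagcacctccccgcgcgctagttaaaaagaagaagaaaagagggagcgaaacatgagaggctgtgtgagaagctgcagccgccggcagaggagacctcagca
Ptch1: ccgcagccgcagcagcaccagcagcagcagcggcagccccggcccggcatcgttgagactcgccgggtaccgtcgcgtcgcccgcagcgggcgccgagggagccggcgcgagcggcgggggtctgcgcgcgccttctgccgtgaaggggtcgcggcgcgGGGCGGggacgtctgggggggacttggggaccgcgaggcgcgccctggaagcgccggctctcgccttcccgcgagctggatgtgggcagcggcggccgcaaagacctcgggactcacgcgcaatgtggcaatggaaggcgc

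RefSeq windows were listed for 6 of the 9 members, namely *Ptch1*, *Smo*, *Gli2*, *Gli3*, *Hhip* and *Gas1*. None of the 6 held the full GLI consensus GACCACCCA or its reverse TGGGTGGTC, which was found in 0.253% of the 32851 windows of this length in the table. The core CCACCC, which lies within that consensus, was found in 4 of the 6 windows and in 31.5% of all windows, once in *Hhip* and not in *Ptch1*. The GC box was found in 5 of the 6 and in 35.7% of all windows. A missing match says only that these letters are not in the window. The windows were rich in G and C, with 73.7% in *Hhip* and 76.3% in *Ptch1*.

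*Ptch1*, the receptor that is itself induced by the pathway, had 348, 495 and 333 CPM in control and 611, 746 and 389 CPM in cKO libraries. Each cKO library was thus above its same-numbered control library, by 0.81, 0.59 and 0.23 on the log2 scale, but replicate 3 lay below the highest control library. The means were 392 ± 89.5 and 582 ± 180 CPM (SD, n = 3 each). The log2 fold change was 0.57 (SE 0.27, 95% interval −0.06 to 1.20). The adjusted p of *Ptch1* was 0.237 in edgeR, 0.0800 with the block and 0.162 in DESeq2. The ratio of *Hhip* to *Ptch1* within a library does not depend on how libraries are scaled to each other. In TPM it was 2.95%, 2.84% and 0.914% in control and 29.1%, 9.03% and 8.24% in cKO libraries, without overlap between the groups.

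*Smo*, the signal transducer that PTCH1 inhibits, had 269, 255 and 246 CPM in control and 266, 276 and 221 CPM in cKO libraries, and the groups overlapped. *Smo* had a log2 fold change of −0.01 (SE 0.12, 95% interval −0.31 to 0.28, edgeR adjusted p = 0.962). Its sign changed with the scaling, and 0.04 was obtained with library size alone. The ratio of *Ptch1* to *Smo* in TPM was 0.688, 1.03 and 0.714 in control and 1.22, 1.43 and 0.932 in cKO libraries, so *Ptch1* exceeded *Smo* in 1 and in 2 libraries of 3.

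The coreceptors *Gas1*, which encodes a protein held in the membrane by a lipid anchor, and *Boc*, which encodes an immunoglobulin superfamily protein, were less abundant. *Gas1* had 15.9, 13.9 and 14.4 CPM in control and 62.0, 23.5 and 18.2 CPM in cKO libraries. *Boc* had 15.4, 17.1 and 13.1 CPM and 39.1, 20.01 and 19.2 CPM in the same order. For both, every cKO library was above every control library, and replicate 1 stood well above the other two. The log2 fold change of *Gas1* was 1.23 (SE 0.44, 95% interval 0.18 to 2.27), with an adjusted p of 0.153 in edgeR, 0.102 with the block and 0.0411 in DESeq2. That of *Boc* was 0.78 (SE 0.30, 95% interval 0.08 to 1.48), with an adjusted p of 0.170 in edgeR, 0.106 with the block and 0.0934 in DESeq2. Without replicate 1 of the cKO group, the log2 fold changes were 0.51 for *Gas1* and 0.38 for *Boc* (edgeR). The third coreceptor, *Cdon*, had 38.9, 35.5 and 32.3 CPM and 53.4, 43.9 and 44.8 CPM, again without overlap, with a log2 fold change of 0.41 (SE 0.13, edgeR adjusted p = 0.130). Summed in TPM, the 3 coreceptors were at 20.5 to 25.7 in control and 29.3 to 74.4 in cKO libraries.

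*Gli1*, which encodes an activator and is the usual transcriptional readout of the pathway, had 282, 315 and 324 CPM in control and 401, 333 and 277 CPM in cKO libraries. Both the highest and the lowest of the 6 libraries were cKO. For *Gli1* the log2 fold change was 0.13 (SE 0.16, 95% interval −0.24 to 0.51, edgeR adjusted p = 0.643), and it was 0.004 without replicate 1 of the cKO group. *Gli2*, the main activator upstream of *Gli1*, had 38.2, 45.1 and 46.1 CPM and 101, 51.1 and 34.8 CPM in the same order. Its log2 fold change was 0.53 (SE 0.36, 95% interval −0.32 to 1.38, edgeR adjusted p = 0.400), and it was 0.01 without replicate 1 of the cKO group. *Gli3*, which encodes the main repressor, had 76.0, 89.9 and 75.9 CPM and 75.1, 94.8 and 74.4 CPM. Its log2 fold change was 0.01 (SE 0.14, 95% interval −0.32 to 0.34, edgeR adjusted p = 0.964).

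Among the 3 *Gli* transcripts counted in TPM, *Gli1* made up 81.4% to 83.0% in control and 80.7% to 81.8% in cKO libraries. *Gli2* made up 5.90% to 6.26% and 5.59% to 10.8%, and *Gli3* made up 10.7% to 12.5% and 8.42% to 12.7%, in the same order of genotypes. The shares overlapped between genotypes, and the *Gli2* share above 10% was that of cKO replicate 1. The genes of 7 members overlap another RefSeq gene, among them *Gli1* with *Arhgap9* and *Shh* with a long noncoding RNA gene. How the counting used strand is not given in the sources used here, and reads from such shared stretches are uncertain.

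**Figure D2:**
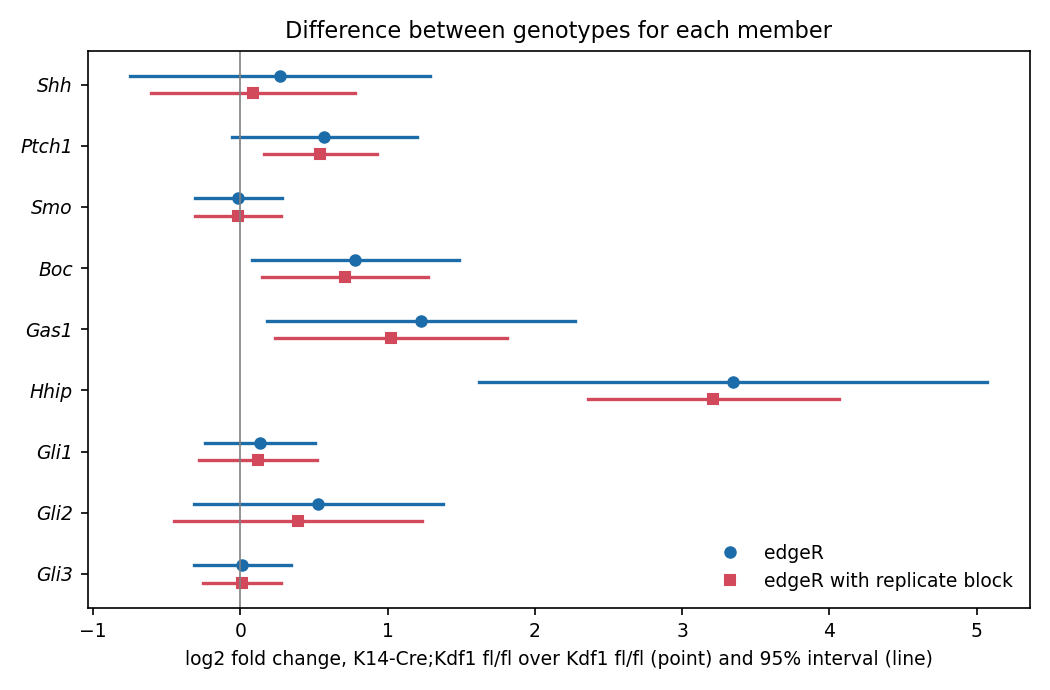
Log2 fold change of each member, cKO over control, with its 95% interval, in edgeR without (circles) and with (squares) the replicate number as a block. The interval of *Hhip* lies farthest from 0, those of *Gas1* and *Boc* lie above 0, and those of *Shh*, *Smo*, *Gli1*, *Gli2* and *Gli3* include 0 in both fits.

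Markers of other cell types were highest in the same library as some of these members. In cKO libraries 1, 2 and 3, the mesenchymal transcription factor gene *Prrx1* had 266, 116 and 86.0 CPM. The receptor gene *Pdgfrb* had 273, 151 and 69.1 CPM, and both genes were chosen after their values were seen. Their highest value was in the same library as for *Hhip*, *Gas1*, *Boc*, *Gli1* and *Gli2*. In control libraries *Prrx1* and *Pdgfrb* had 15.5 to 40.3 and 28.7 to 56.2 CPM. Of the 14 markers of dental mesenchyme and odontoblasts, 10 had a log2 fold change above 0 (49.5% of all genes tested did) and 7 were higher without overlap (14.5% of all genes were). *Twist1* was the 1 marker of the 14 called by edgeR (0.432% of all genes were), with a log2 fold change of 2.23 (adjusted p = 0.0498). It had 9.29, 16.5 and 8.97 CPM in control and 75.9, 45.8 and 41.9 CPM in cKO libraries. Among the cKO libraries, 8 of the 14 were highest in replicate 1, 3 in replicate 2 and 3 in replicate 3. All 6 erythroid markers were highest in replicate 1 too, and their sums overlapped between genotypes. The share of all genes that were highest in each cKO library is not given here, for this or any other list. *Dcn*, *Col1a1*, *Col1a2* and *Dspp* had a log2 fold change below 0. The summed level of all 14, dominated by collagen transcripts, was 4546 to 23582 CPM in control and 12395 to 13592 CPM in cKO libraries. The 6 endothelial markers summed to 247 to 309 CPM in control libraries and to 815, 505 and 283 CPM in cKO libraries 1, 2 and 3, and all 6 had a log2 fold change above 0 and were highest in cKO replicate 1. The 6 immune markers summed to 28.3 to 57.1 CPM in control libraries and to 172, 74.0 and 46.9 CPM in the cKO libraries, again with all 6 above 0 and highest in replicate 1. No marker of these 3 lists was at 0 in all libraries. The part of these cells in the values of *Hhip*, *Gas1*, *Boc*, *Gli1* and *Gli2* was not tested.

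All 9 markers of dental epithelium had a log2 fold change below 0, and 5 of them were lower without overlap (16.2% of all genes were). The most negative were those of the enamel matrix genes *Amelx* (−5.89) and *Enam* (−5.62), whose levels also differed widely among controls, with 1244, 4584 and 10697 CPM for *Amelx*. *Epcam*, *Trp63*, *Perp* and *Ambn* overlapped between genotypes, with log2 fold changes of −0.05, −0.37, −0.55 and −2.33. *Krt14* was at 1121 to 2315 CPM in control and 399 to 811 CPM in cKO libraries. *Cdh1* was the 1 marker of the 9 called by edgeR (0.432% of all genes were), with a log2 fold change of −1.50 (adjusted p = 0.0498). It was at 650 to 1028 CPM in control and 265 to 350 CPM in cKO libraries. The 4 markers of stratum intermedium, a layer that lies on the IEE, summed to 2822 to 3324 CPM in control libraries and to 1734, 1446 and 2808 CPM in cKO libraries 1, 2 and 3. Among the cKO libraries, replicate 3, which had the most *Shh*, was the highest for 9 of the 9 epithelial markers and 3 of the 4 stratum intermedium markers. The enamel knot is a signalling centre of the dental epithelium that makes *Shh*. Of its 11 markers 9 were tested, and 6 of these had a log2 fold change above 0 (49.5% of all genes tested did). Among the cKO libraries, 8 of the 11 were highest in replicate 3 and 3 in replicate 2. Of those highest in replicate 3, *Fgf20* had 1 count there and 0 in every other library. *Dkk4* and *Fgf4* had 53 and 38 counts there, 12 and 15 in control replicate 1, and 0 in control replicates 2 and 3. The summed level of the 11 markers was 528 to 918 CPM in control and 341 to 817 CPM in cKO libraries. *Fgf9*, *Edar* and *Slit1* were higher without overlap (3 of the 9 tested, against 14.5% of all genes). Their log2 fold changes were 1.03 (*Slit1*) to 1.82 (*Edar*), and *Slit1* was highest in replicate 2. *Cdkn1a* and *Wnt10a* had log2 fold changes of −0.94 and −1.02, with an adjusted p of at least 0.273 in edgeR and of 0.0146 and 0.0203 with the block. *Bmp2* and *Bmp7* were at −0.11 and 0.06. The part of epithelial and enamel knot content in the level of *Shh* was not tested.

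**Figure D3:**
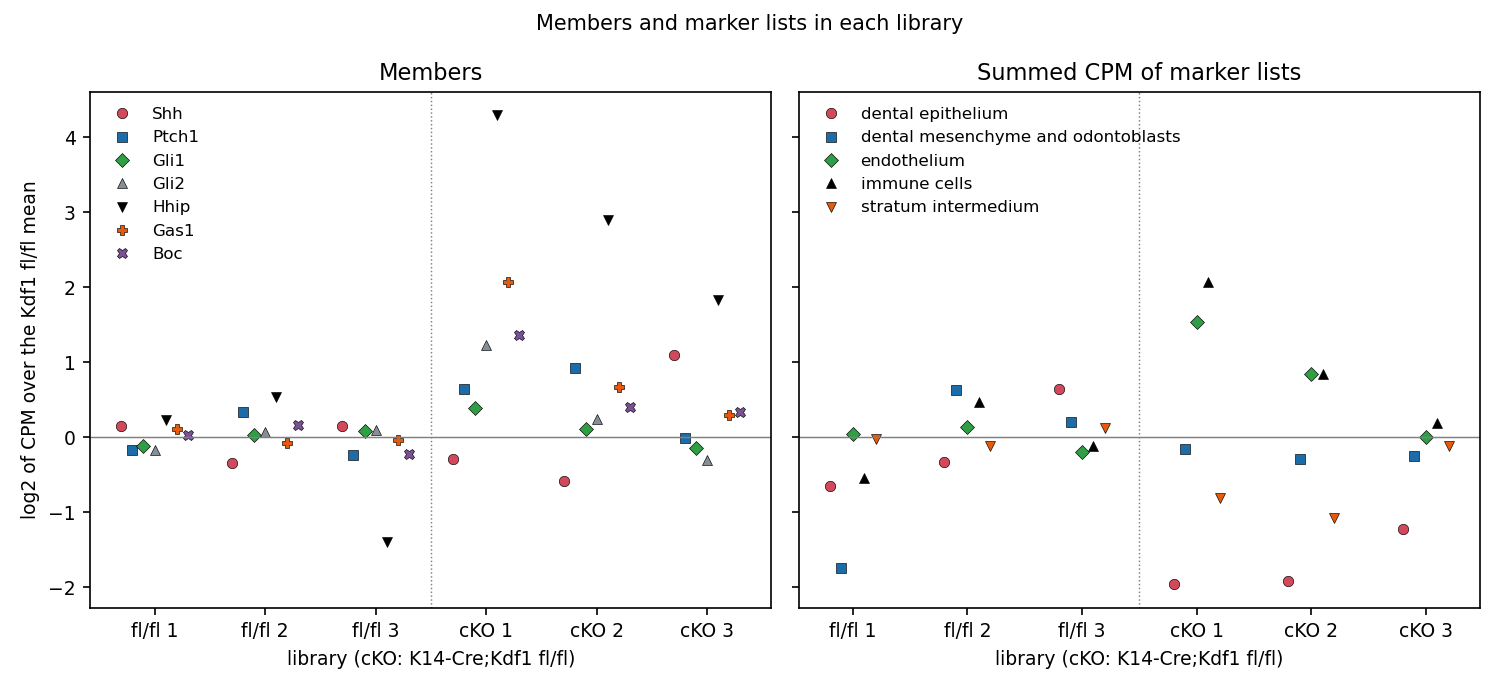
CPM of 7 members (left; *Smo* and *Gli3* are left out) and summed CPM of 5 marker lists (right) in every library, as the log2 ratio to the mean of the control libraries, which are marked fl/fl. *Hhip*, *Gas1*, *Boc*, *Gli1* and *Gli2* and the endothelial and immune sums are highest in cKO 1, and *Shh* is highest in cKO 3.

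The other genes of the pathway were taken from a list of 41 genes grouped by role, of which 36 were tested. In edgeR none of the 36 was called (0.432% of all genes were), while 11 had an unadjusted p of at most 0.05, 9 of them higher (13% of all genes were) and 2 lower (11.6% were) in cKO libraries. DESeq2 called 5 of 36, all higher, against 5.05% of all genes called higher. With the replicate block edgeR called 5, all higher, against 4.16%. The groups did not overlap in 11 genes that were higher (14.5% of all genes were) and in 6 that were lower (16.2% were). The median log2 fold change of the list was 0.04.

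The remaining ligand genes were hardly expressed. *Ihh* and *Dhh* did not pass the filter, with 0.369 and 0.330 CPM on average in control and 0.577 and 0.998 CPM in cKO libraries, so nearly all hedgehog ligand transcripts were those of *Shh*. The 5 genes for lipid attachment and release of the ligand were all tested, with a median log2 fold change of 0.23 and no group separation in CPM. One of them, *Scube1*, which encodes a secreted protein that helps free the ligand, passed with the replicate block alone (log2 fold change 1.39, edgeR adjusted p = 0.0497). Its values varied widely within groups, with 46.6, 146 and 17.5 CPM against 94.3, 263 and 92.2 CPM, and its adjusted p was 0.411 in edgeR without the block and 0.494 in DESeq2.

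*Lrp2*, a large endocytic coreceptor, did not pass the filter, with at most 0.303 CPM in a library.

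Of the 20 transducers and inhibitors, 6 had a log2 fold change above 0, as 49.5% of all genes tested did, and the median was −0.10. *Kif7*, a kinesin that regulates GLI proteins at the tip of the cilium, had 71.5, 73.7 and 95.1 CPM in control and 56.0, 54.2 and 53.1 CPM in cKO libraries. The groups did not overlap, and the log2 fold change of −0.56 (SE 0.14) had an adjusted p of 0.0841 in edgeR, 0.0556 with the block and 0.0205 in DESeq2. *Prkacb*, a catalytic subunit of protein kinase A, which marks GLI2 and GLI3 for processing, had a log2 fold change of 0.52 (SE 0.16) and adjusted p values of 0.119 (edgeR), 0.0434 (with the block) and 0.0496 (DESeq2). *Sufu*, the cytoplasmic inhibitor that holds GLI proteins, overlapped between genotypes, with a log2 fold change of −0.16 (SE 0.15, edgeR adjusted p = 0.544).

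Of the 11 genes known as transcriptional targets of the pathway in other tissues, 9 were tested. DESeq2 called 5 of these 9, all higher, against 5.05% of all genes called higher. With the replicate block edgeR called 4 of the 9, all higher, against 4.16%. The median log2 fold change of the 9 was 1.49, and 6 were higher (14.5% of all genes were) and 1 was lower (16.2% were) without overlap. *Foxf2*, a forkhead transcription factor gene of craniofacial mesenchyme, had 17.9, 26.6 and 11.4 CPM in control and 203, 95.7 and 71.1 CPM in cKO libraries. Its log2 fold change was 2.73 (SE 0.47), with adjusted p values of 0.0582 in edgeR, 0.0124 with the block and 1.04e-07 in DESeq2. Its relative *Foxf1* had 21.6, 45.6 and 22.9 CPM and 126, 88.9 and 80.3 CPM. The log2 fold change of *Foxf1* was 1.71 (SE 0.33), and its adjusted p values were 0.0637, 0.0263 and 3.48e-05 in the same tests. *Foxf2* was also called by edgeR without replicate 3 of the cKO group. For both genes the groups did not overlap, and replicate 1 of the cKO group was the highest library.

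*Osr2*, a transcription factor gene of dental mesenchyme, had a log2 fold change of 2.00 (SE 0.58), with adjusted p values of 0.111 in edgeR, 0.00352 with the block and 0.00342 in DESeq2. *Snai1*, which encodes a repressor of E-cadherin, had 1.49 (SE 0.51), with 0.143, 0.0480 and 0.0240 in the same tests. *Foxc2*, a forkhead gene of mesenchyme, had 2.58 (SE 0.73) and was called by DESeq2 (adjusted p = 0.00352), but not with the block (0.0702). *Ccnd1*, which encodes cyclin D1, went the other way, with 633, 530 and 455 CPM in control and 326, 390 and 269 CPM in cKO libraries. Its log2 fold change was −0.72 (SE 0.19), with adjusted p values of 0.0896 in edgeR, 0.0348 with the block and 0.00934 in DESeq2. *Foxf1*, *Foxf2*, *Foxc2* and *Osr2* are known for expression in mesenchyme, and the part of the mesenchymal markers given above in their values was not tested.

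**Figure D4:**
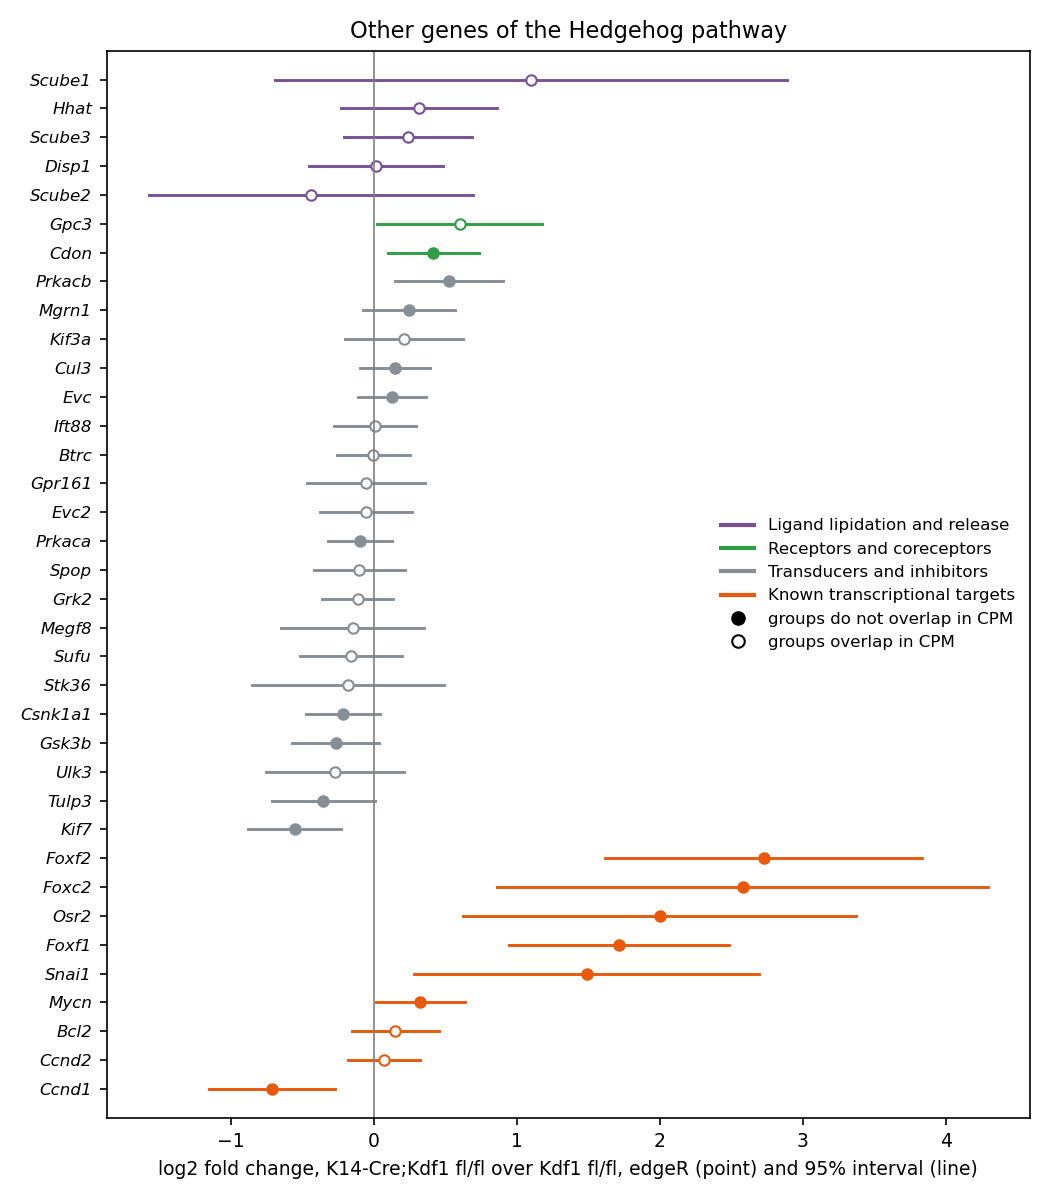
Log2 fold change (cKO over control) with its 95% interval in edgeR for the 36 tested genes of the wider pathway list, coloured by role, with filled points where the genotypes do not overlap in CPM. The genes farthest to the right are *Foxf2*, *Foxc2*, *Osr2*, *Foxf1* and *Snai1*, and *Ccnd1* and *Kif7* lie lowest among those with filled points.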

How the data were processed

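RNA was isolated with TRIzol from IEE captured by laser microdissection, and libraries were prepared with the TruSeq RNA kit. The submitters' processing notes name BWA 0.7.12, Picard 2.6.0 and StringTie. The genome build, the counting program and its use of strand are not given in the sources used here. The authors deposited estimated counts, TPM and FPKM per gene and library in one table. The deposited estimated counts, of which 10.9% to 11.5% per library were not whole, were rounded. The deposited TPM values, which the authors scaled by transcript length, were used to compare genes, and the deposited FPKM values and the authors' group means were not used.

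Genes were filtered with filterByExpr, scaled by the trimmed mean of M-values (TMM) and tested with edgeR 4.0.16 (quasi-likelihood, R 4.3.3), with Benjamini-Hochberg adjustment over 14131 genes. Calls used the cutoffs of the study, an adjusted p no higher than 0.05 with a log2 fold change of 1 or more in size. The test behind the study's own calls is not named in the sources used here, so the calls made here do not reproduce them. Alternatives were DESeq2 1.42.0, limma 3.58.1, other scalings and filters, and leaving out each library. The script was tested on simulated data. The deviations of same-numbered libraries from their group means correlated at 0.135, 0.324 and 0.499, each above 0.1. The main edgeR fit did not pair the libraries, and the replicate number was used as a block in an alternative fit only. A pairing would rest on these correlations and on the shared numbers in the labels, which name no litter or batch. Replicates differed by more than sampling noise (36.0 to 76.7 times the expected chi-square), so no library was counted as a duplicate.

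The members and gene lists were chosen with earlier results of these data known, and some genes of these lists are not reported here. Of the wider list, *Ihh*, *Dhh*, *Cdon*, *Lrp2*, *Sufu* and *Kif7* were named whatever their values, and the others where an adjusted p was at most 0.05 in edgeR, in edgeR with the block or in DESeq2. For *Shh*, *Ptch1* and *Gli1* the 3 genes with the most similar profile were named, by the root mean square difference of centred log2 CPM among genes with a mean of at least 5 CPM. Of the marker lists, *Krt14*, *Epcam*, *Cdh1*, *Ambn*, *Vim*, *Col1a1*, *Twist1*, *Pdgfra* and *Msx1* were named by rule, and every other marker after its values were seen.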

Additional observations from a re-analysis of the deposited data

How the results depend on the processing

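Over all genes, 61 met the criterion. The count was 980 in DESeq2, 7 with DESeq2's size factors in edgeR, 9 with library size alone, 103 with no filter, 6 with at least 10 counts in every library, 6 in limma-voom, 16 on log2(TPM + 1), and 1 to 465 with a library left out. It was 465 without cKO replicate 3 and 16 without control replicate 2. The split of higher to lower genes was 20 to 41 with TMM, 1 to 6 with size factors and 2 to 7 with library size alone, but 714 to 266 in DESeq2, 588 to 272 with the replicate block and 329 to 136 without cKO replicate 3. With the replicate number as a block, 860 genes were called, with 1 member (*Hhip*) and 5 genes of the wider list among them, and the block changed no other call among these lists. DESeq2 called 2 members and 5 genes of the wider list. With a library left out, 0 to 1 members and 0 to 1 genes of the wider list were called, namely *Hhip* and *Foxf2* without cKO replicate 3. The log2 fold change of *Shh* was −0.40 without that library, and the range over the libraries left out was −0.40 to 0.59. That of *Smo* was above 0 in 9 of 16 alternatives, with 0.00446 in DESeq2, 0.00444 with size factors, 0.0180 with the upper quartile, 0.0419 with library size alone, 0.00244 with at least 10 counts, 0.0380 on log2(TPM + 1) and 0.0382 on log2(TPM + 0.1), 0.03 without control replicate 1 and 0.0960 without cKO replicate 3, in a range of −0.0447 to 0.0960 over the libraries left out. That of *Gli3* was −0.02 and −0.03 without control replicates 1 and 3 and −0.0809 without cKO replicate 2, in a range of −0.0809 to 0.0941 over the libraries left out, and it reached 0.13 on log2(TPM + 0.1). *Ptch1*, *Gli1*, *Gli2*, *Hhip*, *Boc* and *Gas1* kept their direction in all 16 alternatives. The cause of these changes was not tested. Each member had at least 60 counts in every library.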

Other observations

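The 3 genes whose profile over the 6 libraries was most like that of *Shh*, among 11597 genes compared, were *Zscan30*, *Tgfa* and *Rnf32*, at root mean square differences of 0.0996, 0.121 and 0.138 on the centred log2 CPM scale. For *Ptch1* they were *Cc2d2a* (0.0599), *Dlx1* (0.0695) and *Neurl1a* (0.0719), and for *Gli1* they were *Uap1l1* (0.0353), *Mamstr* (0.0419) and *Rflnb* (0.0553). The measure is a description over 6 libraries that share their scaling.

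*Rnf32* is the protein-coding gene next to *Shh* in the RefSeq annotation, which was looked up after these values were seen. It had 7.97, 6.42 and 8.53 CPM in control and 6.83, 4.91 and 13.4 CPM in cKO libraries, so that its highest and its lowest library were those of *Shh*. *Rbm33*, on the other side of *Shh*, had 189, 157 and 157 CPM and 206, 239 and 175 CPM, and ranked 8046 of 11597 in likeness to *Shh*. Of the neighbours of the 9 members, 14 were compared with their member in this way, and the next lowest rank was 2341. *Lmbr1*, which holds the limb enhancer of *Shh* in an intron, had 21.3, 17.2 and 19.6 CPM and 21.8, 15.3 and 25.4 CPM.

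Bone markers summed to 241 to 424 CPM in control and 376 to 658 CPM in cKO libraries. Among them *Runx2* and *Ibsp* had log2 fold changes of 1.63 and 1.05, and *Sp7* and *Bglap* had −0.10 and −1.32. Erythroid markers summed to 827 to 1301 CPM in control and 798 to 1223 CPM in cKO libraries. All 6 erythroid markers were highest in replicate 1 among the cKO libraries. Markers of keratinised oral epithelium summed to 40.5 to 127 CPM in control and 15.1 to 21.1 CPM in cKO libraries. *Krt6a* made up most of the control sum, with 108, 25.4 and 73.5 CPM, and *Krt13* added 37.0 CPM in control replicate 3 alone. In cKO libraries *Krt6a* had 4.05, 3.21 and 6.92 CPM, a log2 fold change of −3.87. It was the 1 marker called by edgeR (adjusted p = 0.0498) of the 4 tested in this list (0.432% of all genes were called). *Krt1* was at 3.27 to 4.52 CPM in control and 2.025 to 2.70 CPM in cKO libraries, while *Krt10*, *Lor* and *Sprr1a* overlapped between genotypes.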
